A study of Homo sapiens with 5 samples.

Results

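Among 291 SW480 cells recovered from zebrafish xenografts at 4 days post injection (4 dpi), the 72 cells with the highest share of immediate-early transcripts (group A) were compared with the 72 cells with the lowest share (group B). Each cell had a score, the summed UMIs (unique molecular identifiers, each a counted transcript molecule) of FOS, FOSB, JUN, EGR1, IER2, ATF3 and NR4A1 per 10000 human UMIs, and within each plate group A was the top quartile of the score and group B the bottom quartile. The groups were therefore chosen by measured values, the 7 genes stand below as a description, and the tests concern genes that took no part in the choice. Library 10 (4678213 human UMIs in its 384 wells) gave 32 cells to each group and library 11 (4487175 UMIs) gave 40, and the whole series held 822 cells by the same filter, 531 of them from 1 dpi.

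SW480 is a colorectal cancer line of human origin, long established in culture. All cells of both groups carried GFP from a lentiviral vector, had been injected into zebrafish larvae, came from dissected tumors of many pooled fish, were released with liberase in the presence of an anoikis inhibitor, and were sorted alive (DAPI-negative) at 1 cell per well into 384-well plates for SORT-seq, a single-cell RNA-seq method that counts UMIs. Groups A and B differed in no treatment, time or host, and each of the 2 plates of 4 dpi held both. Nothing in the labels tells whether the 2 plates came from separate tumor pools, so the p-values measure the spread between these plates, which may be technical.

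Immediate-early genes are transcribed within minutes of a stimulus such as a growth factor, a cytokine, wounding or stress, without new protein synthesis. Many of them encode transcription factors: FOS and FOSB pair with JUN to form AP-1, ATF3 joins the same family of dimers, EGR1 is a zinc finger factor, NR4A1 an orphan nuclear receptor, and IER2 a nuclear protein of less defined function. Their transcripts decay fast, they are followed by feedback genes that switch the signal off, and they are also known to be induced while tissue is taken apart with enzymes. Induction in the xenograft and induction during dissociation cannot be told apart in these libraries.

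The EGR1 promoter shows the best known element of this response. RefSeq promoters (GRCh38.p14, 250 bases before to 50 after the start of transcription) were matched for 7 of 7 score genes and searched on both strands for the CArG box, the element bound by serum response factor, for the octamer consensus of the cyclic AMP response element and for the AP-1 site TGANTCA. EGR1 was the only score gene with a match in these windows. It had 2 CArG boxes, at bases -105 to -96 and -83 to -74 from the start, where 1.29% of all 27195 promoters held one. Sites outside the windows, or that depart from these patterns, were not searched, so other score genes may still hold such elements. The stretch chr5:138465229-138465478, on the plus strand, is printed with its CArG boxes in capitals.
EGR1: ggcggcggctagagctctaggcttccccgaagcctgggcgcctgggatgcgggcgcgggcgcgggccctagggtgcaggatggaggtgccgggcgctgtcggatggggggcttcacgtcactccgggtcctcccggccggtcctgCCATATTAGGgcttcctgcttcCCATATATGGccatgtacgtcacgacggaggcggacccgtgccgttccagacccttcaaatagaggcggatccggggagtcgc
The cyclic AMP response element was present in 1.98% of all promoters and the AP-1 site in 7.73%, and neither had a match in these windows of the 7 score genes. Promoters were given for 9 of 14 further AP-1 genes and for 35 of 49 further early genes, too few to give a share.

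The score ran from 0 to 341 in library 10 and from 0 to 291 in library 11, with plate medians of 4.00 and 5.93. The lowest cell of group A had a score of 22.3 in library 10 and 28.1 in library 11, and the next cells below, outside the group, had 19.8 and 27.9. The highest cell of group B had 1.58 and 2.01, and the next cells above had 1.64 and 2.15. Within a ratio of 1.25 of the edge of group A lay 6 cells inside and 6 outside in library 10, and 7 inside and 7 outside in library 11. By construction the groups are the ends of a range. The median score was 44.2 and 53.6 in group A and 0.906 and 1.22 in group B, which rested on medians of 149 and 84.5 UMIs of the 7 genes in a cell of A and of 2 and 3 in a cell of B.

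**Figure D1:**
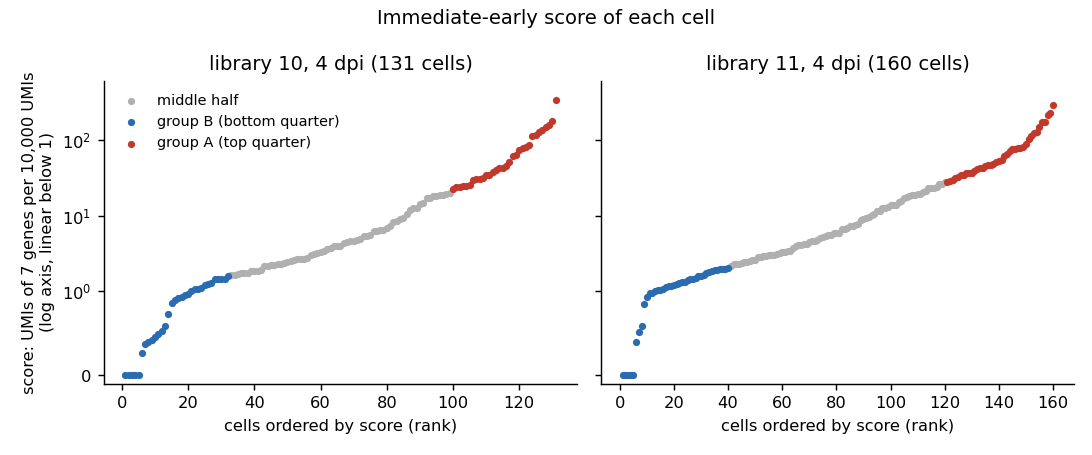
Immediate-early score of each cell (log axis, linear below 1) against its rank within the plate, for the 131 cells of library 10 and the 160 cells of library 11. Red points are group A, blue points group B and grey points the cells between, and 5 cells of each plate had no UMI of the 7 genes.

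Most cells of group A held most of the 7 genes. At least 5 of the 7 were seen in 29 of 32 cells of library 10 and in 40 of 40 of library 11, and all 7 in 16 cells of each plate. The leading gene of an A cell took a median of 39.7% of its score UMIs in library 10 and 33.3% in library 11. That leading gene was IER2 in 10 and 10 cells, EGR1 in 7 and 10, FOS in 6 and 6, JUN in 4 and 5, ATF3 in 4 and 5, and FOSB in 1 and 4. The single richest cell held 20.9% of the score UMIs of group A in library 10 and 16.1% in library 11. Between pairs of score genes, Spearman's rho over cells ranged from 0.44 to 0.70 in library 10 (131 cells) and from 0.297 to 0.715 in library 11 (160 cells), where all values share the depth of the cell.

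In UMIs per 10000, EGR1 (chromosome 5) stood at 20.9 and 22.5 in group A of libraries 10 and 11 and at 0.108 and 0.0897 in group B. It was the most abundant of the 7, and 1 cell of library 10 alone had 894 of its UMIs. IER2 (chromosome 19) stood at 12.4 and 21.2 in A and at 0.253 and 0.458 in B. FOS (chromosome 14) stood at 11.4 and 12.8 against 0.0964 and 0.169. Among the others of the score, ATF3 (chromosome 1) had 9.87 and 11.7 against 0.157 and 0.179. JUN (chromosome 1) had 7.97 and 10.9 against 0.169 and 0.259, and FOSB (chromosome 19) had 6.50 and 8.42 against 0.108 and 0.0897. The rarest was NR4A1 (chromosome 12), with 2.22 and 1.30 in A and 0 and 0.0199 in B. In the quartile just below A, EGR1 had already dropped to 1.28 and 1.97 and FOS to 1.19 and 1.61, so that most transcripts of the family lay in the top quartile.

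The 7 genes moved together also when a gene took no part in the choice of cells. For each gene the quartiles were drawn anew from the other 6, summed per plate and group, and compared with edgeR, with the plate as a block. EGR1 had 1815 and 2135 CPM (counts scaled to a common library size, normalized by TMM) in A of libraries 10 and 11 and 28.7 and 14.6 CPM in B, a log2 difference of 6.54 ± 0.22 (SE, adjusted p = 4.52e-12). FOS differed by 5.66 ± 0.18, FOSB by 5.28 ± 0.21, JUN by 4.50 ± 0.18, ATF3 by 4.69 ± 0.18 and IER2 by 4.35 ± 0.23 on the log2 scale. NR4A1 had 211 and 97 UMIs in A and 0 and 3 in B. Each gene was called in its own comparison, in which the share of all genes tested that was called was 36.3% for FOS, 35.0% for FOSB, 32.5% for JUN, 26.5% for EGR1, 26.0% for IER2, 30.1% for ATF3 and 34.3% for NR4A1. With cells split instead at the median of the score of the other 6 genes, the 7 log2 differences lay between 3.15 and 5.25 and were all called.

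Cells of group A also had a lower share of mitochondrial UMIs. Its median was 8.06% in A and 16.7% in B of library 10, and 10.5% and 18.8% in library 11, and the ranges of the groups overlapped, from 1.73% to 24.3% in A and from 4.63% to 23.6% in B of library 10. Over all cells of a plate, Spearman's rho between score and mitochondrial share was -0.34 (131 cells) and -0.37 (160 cells). Median depth was nearly the same in library 10, with 22151.5 UMIs in A and 22166.5 in B, and was lower in A of library 11, with 14295.5 in A and 21141.5 in B. Because the mitochondrial share moved with the score, the comparison of A and B at 4 dpi was also made with quartiles taken within 3 bins of the mitochondrial share, called matched cells in what follows. Regrouping chose partly other cells, whose score contrast is not given here. Where a call was lost in matched cells, a smaller score contrast and a closer mitochondrial share cannot be told apart. The part of the mitochondrial share in the differences was not tested beyond these values.

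**Figure D2:**
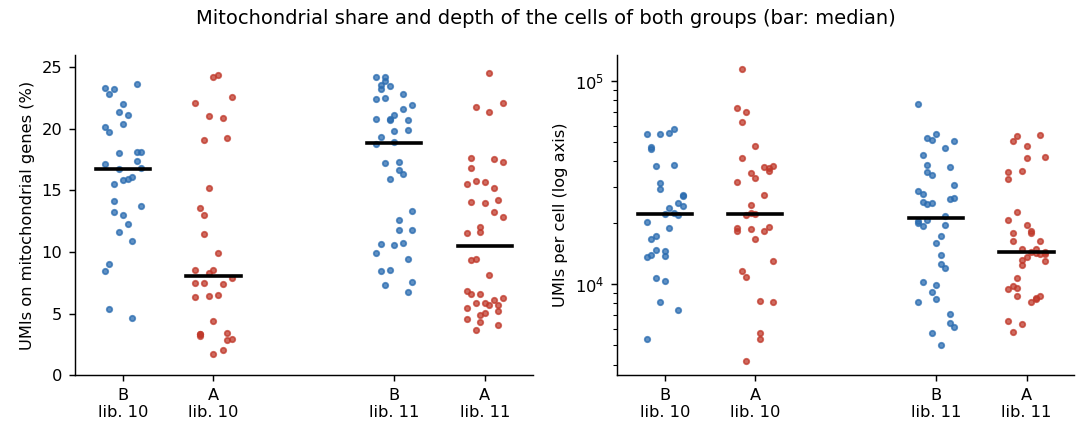
Share of UMIs on mitochondrial genes (left, percent) and UMIs per cell (right, log axis) of the cells of groups A (red) and B (blue) in libraries 10 and 11, 1 point per cell, with the median as a bar. The mitochondrial median was lower in A on both plates, at 8.06% against 16.7% and at 10.5% against 18.8%.

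Both groups were epithelial by their markers. EPCAM, an adhesion protein of epithelia, had 1232 and 1075 CPM in A and 1955 and 1790 CPM in B of libraries 10 and 11 (log2 -0.70 ± 0.10, adjusted p = 3.02e-10), a difference of -0.33 in matched cells, where it was not called (adjusted p = 0.204). The 10 epithelial markers listed together held 0.450% and 0.443% of the human UMIs in A and 0.561% and 0.629% in B. Leukocyte markers had 4 to 7 UMIs in each of the 4 sums and endothelial markers 1 to 2. Fibroblast markers had 34 UMIs in A of library 10 and 1 to 4 in the other sums, and none of the markers of these 3 cell types reached the number needed for a test. ERCC spike-ins made up 1.77% and 3.57% of the UMIs of libraries 10 and 11, and 61 of the 384 well numbers held a passing cell on both plates, 15 of them in group A or B on both.

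Across all genes, 34.1% of those tested (3130 of 9175) were called between A and B, at an adjusted p under 0.05. Higher in A were 1762 genes, 19.2% of those tested, and lower in A 1368 genes, 14.9%. Of the called genes 99.3% had the same direction on both plates, against 76.1% of all genes tested, and 1290 of the higher and 565 of the lower genes differed by 1 or more on the log2 scale. The comparison rests on 4 sums, so the spread was taken from all genes together, and an exact permutation within the 2 plates cannot go below p = 0.5. DESeq2 called 9.02% of 7859 genes, 465 higher (5.92%) and 244 lower (3.1%). In matched cells 10.0% of 9111 genes were called, 725 higher (7.96%) and 187 lower (2.05%). With every cell thinned to 5000 UMIs, 21.3% of 3713 genes were called (13.0% higher, 8.3% lower), and among cells with under 15% mitochondrial UMIs 21.9% of 8254 genes (13.5% higher, 8.36% lower). A higher sum can come from more cells with the transcript or from more transcripts in each cell, which cannot be told apart in sums. A gene could also pass the filter on low counts through the group in which it was high. For genes rare in B, the p-values given below are therefore a description. Among these genes are EGR3, EGR4, GADD45B, DUSP1, DUSP10, TNFAIP3, CXCL1 and DDIT4.

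The largest rises by fitted fold change were of genes without a UMI in group B, for which the fitted value is no bound. EGR2, a paralog of EGR1 and a textbook immediate-early gene, had 52.7 and 115 CPM in A of libraries 10 and 11 and no UMI in B, which makes it at least 45.7-fold higher, counted against 3 UMIs over the group. CYR61, a secreted matricellular protein, had 27.4 and 94.3 CPM in A and none in B, at least 32.5-fold higher. ALOXE3, an epidermal lipoxygenase, had 72.0 and 47.2 CPM in A and none in B, at least 34.4-fold higher. RND1, a GTPase that loosens the actin cytoskeleton, was at least 15.1-fold higher, and C1orf162 at least 13.6-fold, TBX2 at least 12.3-fold, SIPA1L2 at least 9.15-fold and LOC101928841 at least 9.15-fold. All of these were called with edgeR (adjusted p between 1.42e-26 and 1.26e-06). With no UMI in B they passed the filter on low counts through group A alone, so these p-values are a description. In matched cells EGR2, CYR61, ALOXE3 (3.19, beside 8.68 in the main fit) and RND1 were called. C1orf162, TBX2, SIPA1L2 and LOC101928841 were not tested there. EGR2, CYR61 and ALOXE3 were not called with DESeq2 (adjusted p = 0.240, 0.291 and 0.243), which gave no adjusted p for the other 5. In libraries 10 and 11, 1 cell held 46.7% and 35.7% of the C1orf162 UMIs of A and 50.0% and 39.1% of those of TBX2. In total 11 called genes had no UMI in B and 0 had none in A.

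The largest falls were smaller and lay among rare transcripts. ARNT2, a partner of basic helix-loop-helix PAS factors, had 3.04 and 3.72 CPM in A and 21.8 and 21.8 CPM in B (log2 -2.65 ± 0.64, adjusted p = 2.56e-04). GPR155 had 10.1 and 32.3 CPM in A and 89.8 and 114 CPM in B (-2.34 ± 0.31, adjusted p = 1.03e-12). MIR17HG, the host transcript of a microRNA cluster under MYC control, had 7.10 and 19.9 CPM in A and 68.0 and 62.2 CPM in B (-2.32 ± 0.39, adjusted p = 3.47e-08). In each of the 3, both plates of A lay below both plates of B. The other falls of this size were SOWAHA (-2.35), COCH (-2.34), IPP (-2.36), DGCR5 (-2.50) and DKFZP434I0714 (-2.44), each with at most 10 UMIs in A. In matched cells ARNT2 (-2.08), SOWAHA (-1.49) and MIR17HG (-1.24) were still called, GPR155 (-0.83, adjusted p = 0.0797) and DKFZP434I0714 (-1.27, adjusted p = 0.156) were not, and the remaining 3 had too few UMIs. DESeq2 called GPR155 and MIR17HG but not SOWAHA (adjusted p = 0.143).

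The partners of FOS and JUN rose with them. Of 14 further AP-1 and MAF genes, 9 passed the filter on low counts. Of these 8 were higher in A and none lower, beside 19.2% and 14.9% of all genes tested. The median log2 difference of the 9 was 2.41, beside one of -0.00 over all genes tested. JUNB, a JUN family member, had 434 and 549.7 CPM in A of libraries 10 and 11 and 38.5 and 37.1 CPM in B (log2 3.70 ± 0.20, adjusted p = 6.29e-73). JUND, the JUN protein that most resting cells already have, stood at 999.6 and 1182 CPM in A against 225 and 214 CPM in B (2.31 ± 0.13, adjusted p = 2.90e-63). FOSL1, a FOS-related protein known for its part in invasive tumors, stood at 303 and 429 CPM against 42.3 and 90.6 CPM (2.49 ± 0.19, adjusted p = 4.12e-35). For each of these the lowest value of A was more than 3 times the highest of B. FOSL2 differed by 2.41 ± 0.41.

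MAF proteins, which pair with AP-1 and related factors, rose as well. MAFF had 298 and 333 CPM in A and 29.5 and 44.7 CPM in B (3.08 ± 0.22, adjusted p = 1.49e-41). MAFG had 177 and 128 CPM against 51.3 and 67.7 CPM and differed by 1.34 ± 0.24. Unlike these inducible members, ATF7 had 17.2 and 27.3 CPM in A and 25.7 and 26.2 CPM in B, values that overlapped (-0.24 ± 0.42, adjusted p = 0.701). ATF2, a constitutive binder of the cyclic AMP response element, had 63.9 and 72.0 CPM against 32.1 and 28.4 CPM (1.17 ± 0.32, adjusted p = 0.00164), a call that was lost in matched cells (0.61, adjusted p = 0.263) and with DESeq2 (adjusted p = 0.264). In matched cells 7 of the 9 were called higher and none lower, with a median of 2.11. BATF, BATF2, BATF3, JDP2 and MAFK had between 0 and 12 UMIs in each sum and were not tested.

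Most of the further early genes listed were also higher in A. Of 49 further immediate-early and early response genes, 47 were tested, with a median log2 difference of 3.09. Higher in A were 44 of them and lower none, beside 19.2% and 14.9% of all genes tested. Members rare in B, such as EGR2, CTGF and EGR4, could pass the filter on low counts only by being high in A, so this count is a description. In matched cells 44 of 46 were higher and none lower, with a median of 2.78. EGR4 had 81.1 and 113 CPM in A and 2.57 and 2.18 CPM in B (5.29 ± 0.48, adjusted p = 7.69e-26). EGR3 had 64.9 and 60.8 CPM in A against 0 and 5.46 CPM in B (4.38 ± 0.52, adjusted p = 2.13e-15), with an adjusted p of 0.0584 in DESeq2. NR4A2, a paralog of NR4A1, differed by 2.49 ± 0.45 (adjusted p = 6.08e-07). The EGR and NR4A families thus rose beside their members in the score. NR4A3 had 7 and 9 UMIs in A and none in B and was not tested.

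Krüppel-like factors were among the most abundant early genes. KLF6, a growth-restraining factor of injured tissue, had 794 and 893 CPM in A and 56.4 and 88.4 CPM in B (3.55 ± 0.16, adjusted p = 9.03e-100). KLF10, an early target of TGF-beta, had 789.7 and 843 CPM against 79.5 and 72.0 CPM (3.43 ± 0.16, adjusted p = 7.72e-94). KLF2 differed by 3.74 ± 0.41. Over the quartiles of the score from lowest to highest, KLF6 stood at 58.4, 99.1, 435 and 803 CPM in library 10 and at 90.9, 163, 373 and 924 CPM in library 11, so that it rose already below the top quartile.

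Early genes that curb growth or end the response were raised as well. ZFP36 (tristetraprolin), which speeds the decay of mRNAs with AU-rich elements, had 445 and 409 CPM in A and 28.2 and 15.3 CPM in B (4.32 ± 0.23, adjusted p = 4.78e-77). PPP1R15A (GADD34), which lets translation resume by restoring eIF2-alpha, had 766 and 685 CPM against 44.9 and 38.2 CPM (4.12 ± 0.18, adjusted p = 4.45e-108). GADD45B, a stress sensor upstream of p38 and JNK, had 289.9 and 292 CPM against 7.70 and 2.18 CPM (5.90 ± 0.32, adjusted p = 6.70e-71). The groups did not overlap in any of these. BTG2, an antiproliferative protein, differed by 3.57 ± 0.25, RHOB, a GTPase of endosomes, by 3.22 ± 0.18, IER3 by 3.17 ± 0.22, CEBPB by 2.76 ± 0.25 and MCL1, an inhibitor of apoptosis, by 2.30 ± 0.23. CEBPB did not peak in A, with 240 and 236 CPM in the third and top quartiles of library 10 and 241 and 184 CPM in library 11. Its difference in matched cells was 1.18. GADD45G had 83 UMIs in A and 1 in B, a ratio of 78.5 with a 95% counting interval from 13.7 to 3139, and SGK1 had 54 and 1, a ratio of 51.1 (8.79 to 2055).

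Members at the lower end of the list were MYC, ID1, CEBPD, SRF and PLK3. MYC had 352 and 383 CPM in A and 169 and 167 CPM in B (1.13 ± 0.17, adjusted p = 2.74e-10). ID1, an inhibitor of differentiation downstream of BMP signals, had 138 and 95.5 CPM against 88.5 and 43.7 CPM (0.86 ± 0.24, adjusted p = 0.00259), and DESeq2 did not call it (adjusted p = 0.269). SRF, which encodes the factor that binds the CArG box, had 68.9 and 52.1 CPM against 37.2 and 40.4 CPM and was not called (0.63 ± 0.31, adjusted p = 0.103). CEBPD (0.81, adjusted p = 0.194) and PLK3 (1.19, adjusted p = 0.15) were not called either. SOCS3 had 0 and 21 UMIs in A and 3 and 0 in B and was not tested.

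The other members of this list described here were called higher. GADD45A, a sensor of DNA damage, had 1572 and 882 CPM in A and 269 and 227 CPM in B (2.26 ± 0.13). ID2 and ID3, relatives of ID1, differed by 3.08 ± 0.19 and 1.71 ± 0.62. Relatives of ZFP36 rose less than ZFP36 itself in fitted size, with ZFP36L1 at 2.89 ± 0.18 and ZFP36L2 at 1.05 ± 0.19, and so did BTG1 (1.26 ± 0.15) beside BTG2. KLF4 differed by 3.27 ± 0.31, SERTAD1 by 3.94 ± 0.27, IER5 by 2.89 ± 0.33, IER5L by 3.61 ± 0.52, CSRNP1 by 3.38 ± 0.30, TIPARP by 3.43 ± 0.21 and NFIL3 by 3.09 ± 0.44. For TIPARP, 1 cell held 44.7% of the UMIs of A in library 11. ARC had 70 UMIs in A and 3 in B, a ratio of 22.1 (7.25 to 110). BHLHE40 (2.66 ± 0.26), PLK2 (2.60 ± 0.27), RND3 (2.45 ± 0.27), TRIB1 (2.17 ± 0.35), KDM6B (1.85 ± 0.41), MIDN (1.36 ± 0.27) and CCNL1 (2.46 ± 0.18) were also higher. DESeq2 did not call MIDN (adjusted p = 0.0799) or KDM6B (adjusted p = 0.119).

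**Figure D3:**
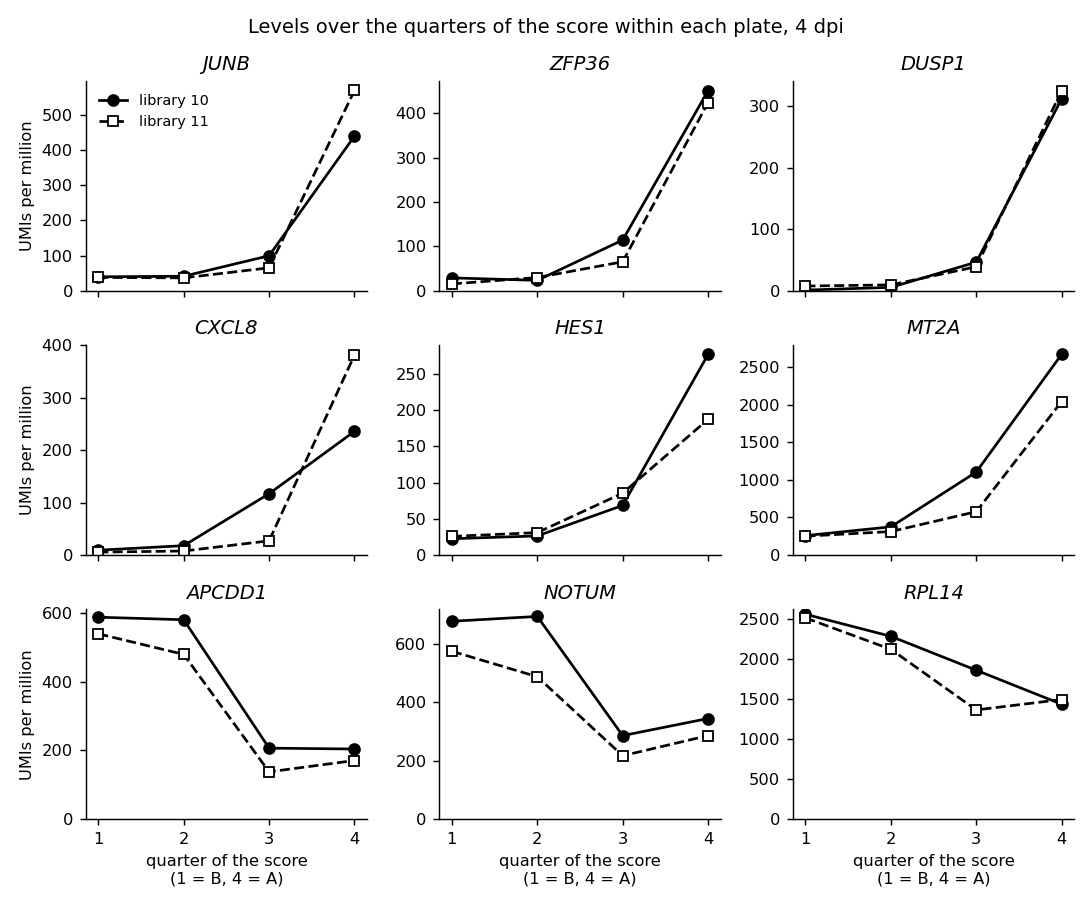
Level (CPM, vertical axis) of 9 genes in the 4 quartiles of the score, from the lowest (1, group B) to the highest (4, group A), for library 10 (filled circles) and library 11 (open squares). JUNB, ZFP36, DUSP1 and CXCL8 had their largest step in CPM into the top quartile, while APCDD1 and NOTUM fell between quartiles 2 and 3.

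Dual-specificity phosphatases, which switch off MAP kinases, led a list of ERK feedback genes and targets. Of 25 genes listed 22 were tested, with a median log2 difference of 1.04. Higher in A were 14 and lower none, beside 19.2% and 14.9% of all genes tested. DUSP1 had 308 and 314 CPM in A of libraries 10 and 11 and 1.28 and 7.64 CPM in B (6.02 ± 0.32, adjusted p = 5.21e-76). With 1 and 7 UMIs in B, DUSP1 passed the filter on low counts through group A, so this p-value is a description. DUSP10 had 61.8 and 103 CPM against 3.85 and 1.09 CPM (5.04 ± 0.51, adjusted p = 7.17e-21). DUSP6, the phosphatase most specific for ERK, had 176 and 194 CPM against 19.2 and 25.1 CPM (3.05 ± 0.27, adjusted p = 5.94e-27), and DUSP5 differed by 4.40 ± 0.57. All 4 were also called in matched cells (log2 5.33, 4.38, 2.99 and 3.53). Over the quartiles DUSP1 stood at 1.33, 5.66, 46.6 and 312 CPM in library 10 and at 7.86, 9.69, 39.2 and 325 CPM in library 11. At the other end of the list EPHA4, a receptor tyrosine kinase, had 15.2 and 19.9 CPM against 43.6 and 10.9 CPM (-0.53 ± 0.45, adjusted p = 0.380).

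Inflammatory transcripts rose as well. Of 28 NF-kappaB targets 20 were tested, with 13 higher, 1 lower and a median of 1.20. TNFAIP3 (A20), a feedback inhibitor of NF-kappaB, had 87.2 and 108 CPM in A and 2.57 and 3.27 CPM in B (4.99 ± 0.46, adjusted p = 2.92e-25). The gene that was lower was CFLAR, an inhibitor of death receptor signals (-0.62 ± 0.25, adjusted p = 0.0405), whose call was lost in matched cells (adjusted p = 0.154) and with DESeq2 (adjusted p = 0.541). Of 28 chemokines and related genes only 6 were tested, and all 6 were higher, with a median of 4.42, beside 19.2% of all genes tested. A member rare in B could pass the filter on low counts only by being high in A, so this count is a description.

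CXCL8, the main attractant of neutrophils, had 233 and 369 CPM in A and 8.98 and 5.46 CPM in B (5.38 ± 0.30, adjusted p = 6.92e-68). Its quartiles from lowest to highest were 9.30, 17.9, 117 and 236 CPM in library 10 and 5.61, 7.76, 27.2 and 381 CPM in library 11. CXCL1 had 58.8 and 84.4 CPM in A against 3.85 and 2.18 CPM in B (4.53 ± 0.50, adjusted p = 2.00e-17), and 1 cell held 37.9% and 42.6% of its UMIs in A. Without the cell richest in the gene in each sum the mean log2 difference over plates was 4.76, beside 4.50 with all cells. Among cells with under 15% mitochondrial UMIs, CXCL1 differed by 1.89 and was not called (adjusted p = 0.0818). CXCL2 (4.48 ± 0.55) and CXCL3 (4.36 ± 0.52), neighbours of CXCL1 and CXCL8 on chromosome 4 with shared neutrophil receptors, also rose. CCL20, an attractant of dendritic cells and lymphocytes, differed by 3.6 ± 0.46, with 53.8% and 69.8% of its A UMIs in 1 cell. IL32 had 81.1 and 83.1 CPM against 38.5 and 48.0 CPM (0.92 ± 0.28, adjusted p = 0.00404) and was not called in matched cells (adjusted p = 0.200). CX3CL1 had 5 and 4 UMIs in A and 4 and 6 in B and was not tested.

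Targets of YAP and TEAD, the growth-promoting arm of the Hippo pathway, overlap with early genes through CYR61, CTGF and GADD45A. Of 25 genes 16 were tested, with 11 higher, 1 lower and a median of 2.12, beside 19.2% higher and 14.9% lower of all genes tested. In matched cells 9 were higher and none lower (median 1.62). CTGF, a matricellular protein, had 32 and 29 UMIs in A and 0 and 1 in B, a ratio of 57.7 with a 95% counting interval from 9.98 to 2316. AXL, a receptor tyrosine kinase, had 32.4 and 38.5 CPM against 1.28 and 4.37 CPM (3.56 ± 0.60, adjusted p = 4.57e-08). F3 (tissue factor), which starts coagulation, had 26 UMIs in A and 2 in B, a ratio of 12.3 (3.08 to 107). The lower gene was TEAD1, the DNA-binding partner itself (-0.62 ± 0.22, adjusted p = 0.0150), which was not called in matched cells (adjusted p = 0.441) or with DESeq2 (adjusted p = 0.383).

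Among 13 ligands, receptors and regulators of the EGF family 7 were tested, with a median of 1.5. Higher were 4 and lower 1, beside 19.2% and 14.9% of all genes tested. HBEGF, a ligand of EGFR, had 119.6 and 201 CPM in A and 3.85 and 10.9 CPM in B (4.41 ± 0.34, adjusted p = 2.79e-36). AREG, a ligand much used by colorectal tumors, had 347 and 232 CPM against 24.4 and 17.5 CPM (3.78 ± 0.25, adjusted p = 1.42e-48). ERRFI1, a feedback inhibitor of EGFR, had 112 and 88.1 CPM against 6.41 and 5.46 CPM (4.03 ± 0.40, adjusted p = 3.25e-22). Ligands and inhibitor were therefore high in the same group. ERBB3, a receptor of the family, was the lower gene, at 26.4 and 49.6 CPM against 101 and 86.2 CPM (-1.33 ± 0.28, adjusted p = 1.46e-05), called also in matched cells (-0.88) but not with DESeq2 (adjusted p = 0.102).

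Of 18 genes of epithelial-mesenchymal transition 11 were tested, with 5 higher, 2 lower and a median of 0.78. Of all genes tested 19.2% were higher and 14.9% lower. SNAI2 (Slug), a repressor of epithelial genes, had 142 and 179 CPM in A and 14.1 and 7.64 CPM in B (3.89 ± 0.32, adjusted p = 2.08e-32), and SNAI1 (Snail) differed by 2.99 ± 0.50. L1CAM, an adhesion molecule, was lower, at 49.7 and 60.8 CPM against 105 and 109 CPM (-0.96 ± 0.25, adjusted p = 8.08e-04), and EPCAM was the other lower gene. DESeq2 did not call L1CAM (adjusted p = 0.222). Genes of the TGF-beta and BMP pathways had 7 of 15 higher and none lower, with a median of 0.57.

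Stress lists rose to different degrees. The ATF4 list (26 tested) had 15 genes higher and 1 lower with a median of 0.88, but 5 higher and none lower in matched cells, with a median of 0.11. DDIT4 (REDD1), an inhibitor of mTORC1, had 97.3 and 104 CPM in A and 5.13 and 4.37 CPM in B (4.38 ± 0.41, adjusted p = 5.48e-24), and 2.42 in matched cells, where it was still called. EIF4EBP1, a repressor of cap-dependent translation, was the lower gene (-1.32 ± 0.26, adjusted p = 5.84e-06) and was not called in matched cells (adjusted p = 0.174) or with DESeq2 (adjusted p = 0.0798). Targets of p53 had 9 of 21 higher and none lower, with a median of 0.81. CDKN1A (p21), the cell cycle inhibitor, had 97.3 and 88.1 CPM against 6.41 and 8.73 CPM (3.57 ± 0.39, adjusted p = 2.67e-18). Among 18 apoptosis genes 6 were higher and 1 lower, where 19.2% of all genes tested were higher and 14.9% lower. PMAIP1 (NOXA), a BH3-only protein, was the highest of them (2.43 ± 0.27, adjusted p = 4.37e-17).

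Of 29 tested heat shock genes 14 were higher and 5 lower, with a median of 0.41, where 19.2% of all genes tested were higher and 14.9% lower. HSPA1A, the inducible HSP70, had 97.3 and 23.6 CPM in A and 6.41 and 9.82 CPM in B (2.67 ± 0.44, adjusted p = 2.67e-08), but 1 cell held 84.4% of its UMIs in A of library 10, and without the richest cell of each sum the mean difference was 1.39 instead of 2.67. HSPE1, the mitochondrial co-chaperone HSP10, had 222 and 216 CPM against 404 and 358 CPM (-0.80 ± 0.16, adjusted p = 5.21e-06), a call lost in matched cells (-0.18, adjusted p = 0.638). Chaperones of the endoplasmic reticulum had 4 of 23 higher and 5 lower, with a median of -0.18, beside 19.2% and 14.9% of all genes tested. HERPUD1, which serves protein degradation there, was the highest (1.73 ± 0.21, adjusted p = 9.93e-15).

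Metallothioneins, which bind zinc and copper, stood out for a few very rich cells. Of 9 genes of metal handling 6 were tested, with 5 higher, none lower and a median of 2.56, beside 19.2% higher and 14.9% lower of all genes tested. MT2A had 2639 and 1974 CPM in A of libraries 10 and 11 and 250.2 and 244 CPM in B (3.20 ± 0.12, adjusted p = 4.34e-150). One cell held 54.4% of these UMIs in A of library 10 and 58.5% in library 11, and without the richest cell of each sum the mean difference over plates was 2.43, beside 3.36 with all cells. MT1E had 252 and 364 CPM against 15.4 and 28.4 CPM (3.81 ± 0.24, adjusted p = 1.13e-51), with 85.9% and 77.1% of its A UMIs in 1 cell and a mean difference of 1.96 without the richest cells, beside 3.98 with them. MT1X differed by 3.24 ± 0.21, with 76.5% and 47.6% of its A UMIs in 1 cell. SLC30A1, the zinc exporter, rose by 1.91 ± 0.27 on the log2 scale, with 24.4% and 67.1% of its A UMIs in 1 cell and a mean difference of 1.16 without the richest cells, beside 2.00 with them. By contrast, SLC39A10, a zinc importer, had 30.4 and 45.9 CPM against 66.7 and 49.1 CPM and was not called (-0.61 ± 0.32, adjusted p = 0.129).

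Notch genes moved in both directions. Of 28 Notch genes 16 were tested, with 5 higher, 2 lower and a median of 0.14. Of all genes tested 19.2% were higher and 14.9% lower. HES1, the main effector of Notch and itself an early gene with a short-lived transcript, had 274 and 181 CPM in A and 21.8 and 25.1 CPM in B (3.23 ± 0.26, adjusted p = 2.22e-33), and 3.48 in matched cells. Its quartiles were 22.6, 26.4, 68.6 and 277 CPM in library 10 and 25.8, 31.0, 85.5 and 187 CPM in library 11. HES7 had 25 UMIs in A and 2 in B, a ratio of 11.8 (2.95 to 103). JAG1, a Notch ligand (2.26 ± 0.54, adjusted p = 2.15e-04), and NRARP, a feedback inhibitor (1.66 ± 0.33, adjusted p = 8.13e-06), were also higher, though DESeq2 called neither (adjusted p = 0.178 and 0.0687). JAG2, another ligand, had 52.7 and 63.3 CPM against 109 and 135 CPM (-1.07 ± 0.25, adjusted p = 1.10e-04) and was called neither in matched cells (adjusted p = 0.396) nor with DESeq2 (adjusted p = 0.118). HES5, HEY2, HEYL and DLL4 had between 0 and 14 UMIs in each sum and were not tested.

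Wnt targets, which are active in SW480 through its truncated APC, lay lower in A. Of 17 tested genes of 29 listed, 10 were lower and 2 higher, with a median of -0.77, beside 14.9% lower and 19.2% higher of all genes tested. In matched cells 3 were lower and none higher, with a median of -0.43. APCDD1, a secreted Wnt inhibitor, had 202 and 165 CPM in A and 567 and 524 CPM in B (-1.57 ± 0.15, adjusted p = 5.71e-23), and -1.27 in matched cells (adjusted p = 1.07e-08). NOTUM, which inactivates Wnt ligands, had 341 and 277 CPM against 654 and 559 CPM (-0.98 ± 0.14, adjusted p = 7.72e-11), and -0.65 in matched cells (adjusted p = 0.00600). NKD1, an intracellular antagonist, had 256 and 226 CPM against 491 and 800.0 CPM (-1.38 ± 0.14, adjusted p = 6.21e-20), and -0.68 in matched cells (adjusted p = 0.00661). These 3 feedback inhibitors were the Wnt genes still called in matched cells.

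Over the quartiles APCDD1 fell in 1 step between the second and the third, from 579.6 to 207 CPM in library 10 and from 479 to 138 CPM in library 11, and NOTUM likewise from 694 to 286 and from 488 to 217 CPM. AXIN2, the classic feedback target, had 138 and 156 CPM in A against 226 and 220.5 CPM in B (-0.60 ± 0.19, adjusted p = 0.00590), and -0.23 in matched cells (adjusted p = 0.559). ASCL2, a stem cell factor of the intestinal crypt, had 46.6 and 55.8 CPM against 123 and 181 CPM (-1.55 ± 0.24, adjusted p = 4.62e-09), and -0.61 in matched cells (adjusted p = 0.113). PROX1 had 171 and 187 CPM against 279.7 and 300.1 CPM (-0.69 ± 0.17, adjusted p = 3.80e-04), a difference of 0.03 in matched cells. KREMEN1 (-1.78 ± 0.54), TCF7 (-1.26 ± 0.35) and CD44 (-1.27 ± 0.37) were lower too, and none of these was called in matched cells. EPHB3, an ephrin receptor that positions crypt cells, was higher, at 41.6 and 38.5 CPM against 15.4 and 20.7 CPM (1.14 ± 0.40, adjusted p = 0.0164), though not in matched cells (adjusted p = 0.0609). DESeq2 did not call AXIN2, PROX1, TCF7, CD44 or EPHB3. TERT had 12 and 2 UMIs in A and 0 and 1 in B and was not tested. TFF3, a secretory trefoil peptide, had 70.0 and 72.0 CPM against 129.6 and 158 CPM (-1.01 ± 0.23, adjusted p = 1.16e-04), and -0.52 in matched cells (adjusted p = 0.189).

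The broadest falls were those of ribosomal and respiratory genes, and none of these falls was called in matched cells. Of 79 tested genes of the cytosolic ribosome 69 were lower and 1 higher, with a median of -0.52, beside 14.9% lower and 19.2% higher of all genes tested. In matched cells 0 were called in either direction, with a median of -0.20. Among cells with under 15% mitochondrial UMIs 60 of 79 were lower (median -0.56), with cells thinned to 5000 UMIs 12 of 77, and with DESeq2 48 of 79. RPL14 had 1421 and 1447 CPM in A and 2476 and 2448 CPM in B (-0.78 ± 0.10, adjusted p = 1.09e-13), and -0.31 in matched cells (adjusted p = 0.229). The higher gene was RPS9 (0.33 ± 0.12, adjusted p = 0.0170). Nuclear genes of oxidative phosphorylation had 43 of 78 lower and 1 higher with a median of -0.48, and again 0 in either direction in matched cells, with a median of -0.17. Among cells with under 15% mitochondrial UMIs 9 of 78 were lower (median -0.37), and with DESeq2 7 of 78. ATP5G1, a subunit of the ATP synthase, had 87.2 and 78.2 CPM against 204 and 179 CPM (-1.21 ± 0.21, adjusted p = 2.89e-07), and -0.44 in matched cells. NDUFA5 of complex I was the higher gene (0.52 ± 0.16, adjusted p = 0.00731).

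Of 24 tested mitochondrially encoded genes 16 were lower and 1 higher, with a median of -0.99, as the mitochondrial shares above imply, and 2 were higher and none lower in matched cells, with a median of -0.01. Among cells with under 15% mitochondrial UMIs 12 of 22 were lower (median -0.52). MT-TV, a mitochondrial tRNA for valine, was the higher gene, at 106 and 150.1 CPM in A and 39.8 and 21.8 CPM in B (2.06 ± 0.27, adjusted p = 8.81e-13), and 1.64 in matched cells (adjusted p = 5.11e-06). MT-TT, the tRNA for threonine, had 16.2 and 14.9 CPM against 55.2 and 76.4 CPM (-2.05 ± 0.37, adjusted p = 5.47e-07), and -0.38 in matched cells. As shares of all human UMIs, the cytosolic ribosome took 11.8% and 11.9% in A and 15.2% and 15.1% in B.

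S phase genes lay lower in A on both plates, with medians of -0.32 and -0.82. In the sums, genes of G2 and M phase went in opposite directions on the plates, while their median share per cell was higher in A on both. Of 42 tested S phase genes 15 were lower and 2 higher, with a median of -0.58, and in matched cells 0 were lower and 1 higher, with a median of -0.05. GINS2, a part of the replicative helicase, had 15.2 and 13.6 CPM in A and 43.6 and 38.2 CPM in B (-1.49 ± 0.42, adjusted p = 0.00193), and -0.27 in matched cells. GMNN (geminin), which blocks relicensing of origins, was higher (1.47 ± 0.24, adjusted p = 3.75e-08). Of 53 G2 and M phase genes 13 were higher and 6 lower, with a median of 1.15 in library 10 and -0.67 in library 11. The shares over all genes tested were 19.2% higher and 14.9% lower. In A of library 10, 1 cell had 113907 UMIs with 3.12% of them on G2 and M phase genes, where the median cell of that group had 0.216%. HMMR, a spindle protein, had 176 and 72.0 CPM in A and 25.7 and 49.1 CPM in B (1.62 ± 0.27, adjusted p = 2.16e-08), with 70.7% of its UMIs of A in library 10 in 1 cell. CBX5 (HP1-alpha) was the lowest of this list (-1.38 ± 0.22, adjusted p = 3.72e-09). The summed share of S phase genes in a cell had a median of 0.201% and 0.196% in A and 0.244% and 0.228% in B. For G2 and M phase genes the medians were 0.216% and 0.225% in A and 0.182% and 0.172% in B.

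The other lists moved less or in both directions, where of all genes tested 19.2% were higher and 14.9% lower. Genes of hypoxia and glycolysis had 8 of 26 higher and 10 lower (median 0.18), the NRF2 response 6 of 20 higher and 3 lower (0.02), cholesterol synthesis 6 of 25 higher and none lower (0.08), and nuclear long non-coding RNAs 9 of 18 higher and 2 lower (0.43). SNHG15, a short-lived non-coding RNA, led the last list, at 586 and 539.8 CPM in A and 139 and 98.2 CPM in B (2.26 ± 0.16, adjusted p = 1.55e-41). Interferon-stimulated genes had 2 of 18 higher and 4 lower (-0.27), antigen presentation by MHC class I 3 of 12 higher and 4 lower (-0.14), ribosome biogenesis 4 of 30 higher and 6 lower (-0.19), the proteasome 4 of 39 higher and 5 lower (0.01), and secretory lineage genes 1 of 7 higher and 4 lower (-0.74). Keratins had 3 of 8 higher and 3 lower (0.07), with KRT80 at 373 and 243 CPM in A against 66.7 and 65.5 CPM in B (2.19 ± 0.20, adjusted p = 2.21e-25) and KRT18 at 557 and 674 CPM against 888 and 1289 CPM (-0.81 ± 0.12, adjusted p = 2.06e-10). The keratins were thus divided between groups. CLDN4, a claudin of tight junctions, was the 1 higher gene of 8 tested epithelial markers, of which 5 were lower (median -0.53).

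Some single members of these lists lay far from the median of their list. OSGIN1, an NRF2 target, had 43 UMIs in A and 2 in B, whereas TXN, the thioredoxin of the same list, had 403 and 383 CPM in A and 691 and 661 CPM in B (-0.78 ± 0.13, adjusted p = 7.22e-08). GPI, a glycolytic enzyme, was the lowest of the hypoxia list, at 218 and 231 CPM against 466 and 550.0 CPM (-1.17 ± 0.15, adjusted p = 2.05e-13). HLA-E, a non-classical class I molecule, rose from 47.5 and 63.3 CPM in B to 131 and 194 CPM in A (1.54 ± 0.24, adjusted p = 2.68e-09), and ERAP1, a peptidase of the same list, was lower (-1.47 ± 0.45, adjusted p = 0.00484). CHGB, a secretory granule protein, had 37 UMIs in A and 3 in B, and MUC5AC, a mucin, 15 and 37. IFIT1, an interferon-induced gene, had 29 UMIs in A and 4 in B, and OAS3 had 16 and 42. RRP12 of ribosome biogenesis (1.5 ± 0.36) and PSMD13 of the proteasome (1.06 ± 0.27) were higher, and PSMA2 (-0.92 ± 0.17), PDIA4 of the endoplasmic reticulum (-1.01 ± 0.34), BIRC5 (-1.05 ± 0.40) and VIL1, an epithelial marker (-1.07 ± 0.43), were lower. DESeq2 did not call ERAP1, OAS3, RRP12, PSMD13, PDIA4, BIRC5 or VIL1, and TXN, GPI, OAS3, PSMD13, PSMA2, PDIA4, BIRC5, MUC5AC and VIL1 were not called in matched cells. The lowest of their lists that were not called were FDXR (p53, -1.23 ± 0.57), BYSL (ribosome biogenesis, -0.96 ± 0.53), OIP5-AS1 (non-coding RNAs, -0.71 ± 0.58) and SMAD3 (TGF-beta, -0.51 ± 0.42).

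The same quartiles were drawn at 1 dpi, from 131 cells in each group on libraries 6, 7 and 8, to ask whether the genes that go with the score differ between time points. There 52.9% of 9830 genes tested were called, 2743 higher (27.9%) and 2459 lower. Among 8948 genes tested at both times, 1278 were higher in A at both, which is 74.9% of the 1707 higher at 4 dpi and 50.4% of the 2538 higher at 1 dpi. Lower at both were 984, which is 73.3% of 1342 and 41.5% of 2372. Called in opposite directions were 40 and 29 genes. The difference between the time points itself was called for 6.06% of 10568 genes, 323 (3.06%) with a greater and 317 (3.0%) with a smaller value at 4 dpi, and with DESeq2 for 3.5% of 5401 genes.

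For several early genes no difference between time points was detected. JUNB at 1 dpi had 642, 1206 and 774 CPM in A of libraries 6, 7 and 8 and 46.8, 53.5 and 57.1 CPM in B (4.02 ± 0.14), and the difference between times was -0.36 ± 0.28 (adjusted p = 0.495). ZFP36 differed between times by 0.68 ± 0.31 (adjusted p = 0.220), DUSP1 by 1.64 ± 0.58 (adjusted p = 0.0943) and CXCL8 by 1.45 ± 0.78 (adjusted p = 0.304). CXCL8 varied widely at 1 dpi, with 101, 882 and 69.4 CPM in A and 25.5, 22.6 and 2.72 CPM in B. Some members were more raised at 4 dpi, as GADD45B was by 2.32 ± 0.47 (adjusted p = 0.00329), HBEGF by 2.04 ± 0.45 (adjusted p = 0.00675) and PPP1R15A by 1.10 ± 0.24 (adjusted p = 0.00664). Others were less raised at 4 dpi, namely ID1 (-2.16 ± 0.34, adjusted p = 3.14e-04), SRF (-1.51 ± 0.30, adjusted p = 0.00309) and CCNL1, a cyclin of RNA splicing (-1.18 ± 0.24, adjusted p = 0.00280).

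Metal, nucleoside and Notch genes were among those that differed between the times. MT2A had 849.5, 699.7 and 800.3 CPM in A at 1 dpi and 947, 574 and 1080.4 CPM in B, so the groups overlapped there. Its difference between times was 3.26 ± 0.20 (adjusted p = 3.03e-11). Without the richest cell of each sum, its mean log2 difference over plates was 2.43 at 4 dpi and -0.15 at 1 dpi, beside 3.36 and 0.03 with all cells. MT1E differed by 2.97 ± 0.29 (adjusted p = 4.88e-07), and without the richest cells its means were 1.96 at 4 dpi and 0.88 at 1 dpi, beside 3.98 and 0.90. UPP1, uridine phosphorylase, had 31.4, 46.3 and 36.3 CPM in A at 1 dpi against 48.6, 46.0 and 54.4 CPM in B, but 143 and 163 CPM against 16.7 and 13.1 CPM at 4 dpi (3.36 ± 0.30), a difference between times of 3.72 ± 0.35 (adjusted p = 3.48e-07). In matched cells of 4 dpi UPP1 differed by 1.56 (adjusted p = 1.48e-05). DDIT4 was also more raised at 4 dpi (2.56 ± 0.58, adjusted p = 0.00842).

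HES1 had 1563, 3231 and 1851 CPM in A at 1 dpi and 20.7, 67.8 and 31.7 CPM in B (5.84 ± 0.15), and was less raised at 4 dpi (-2.65 ± 0.34, adjusted p = 1.87e-05). HES5, another effector of Notch, had 224, 271 and 196 CPM in A at 1 dpi against 1.82, 4.52 and 2.72 CPM in B (6.26 ± 0.23), whereas at 4 dpi it had 2 and 0 UMIs in A and 3 and 8 in B, and the difference between times was called (adjusted p = 3.69e-06). SRSF5, a splicing factor, had 222 and 155 CPM in A and 164 and 214 CPM in B at 4 dpi, values that overlapped, after 333, 442 and 424 CPM against 95.4, 72.3 and 88.9 CPM at 1 dpi (difference -2.26 ± 0.25, adjusted p = 3.69e-06). GPX2, a glutathione peroxidase of the gut, had 66.9 and 65.8 CPM in A and 176 and 211 CPM in B at 4 dpi but 128, 170.1 and 163 CPM against 113, 101 and 83.5 CPM at 1 dpi (difference -2.19 ± 0.25, adjusted p = 5.59e-06).

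Wnt targets differed between the times in part. AXIN2 was higher in A at 1 dpi (0.64 ± 0.13) and lower at 4 dpi, a difference of -1.28 ± 0.22 (adjusted p = 7.07e-04). NOTUM had 374, 302 and 246 CPM in A and 368, 211 and 375 CPM in B at 1 dpi (-0.02 ± 0.13), a difference of -1.001 ± 0.23 (adjusted p = 0.00819), and EPHB3 differed by -2.32 ± 0.41 (adjusted p = 0.00103). APCDD1 was lower in A at both times, at 161.6, 73.9 and 79.1 CPM against 327, 144 and 452 CPM at 1 dpi (-1.47 ± 0.16), and a difference between times was not detected (-0.15 ± 0.29, adjusted p = 0.833). The time points come from different plates and tumors, so time and plate cannot be told apart.

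**Figure D4:**
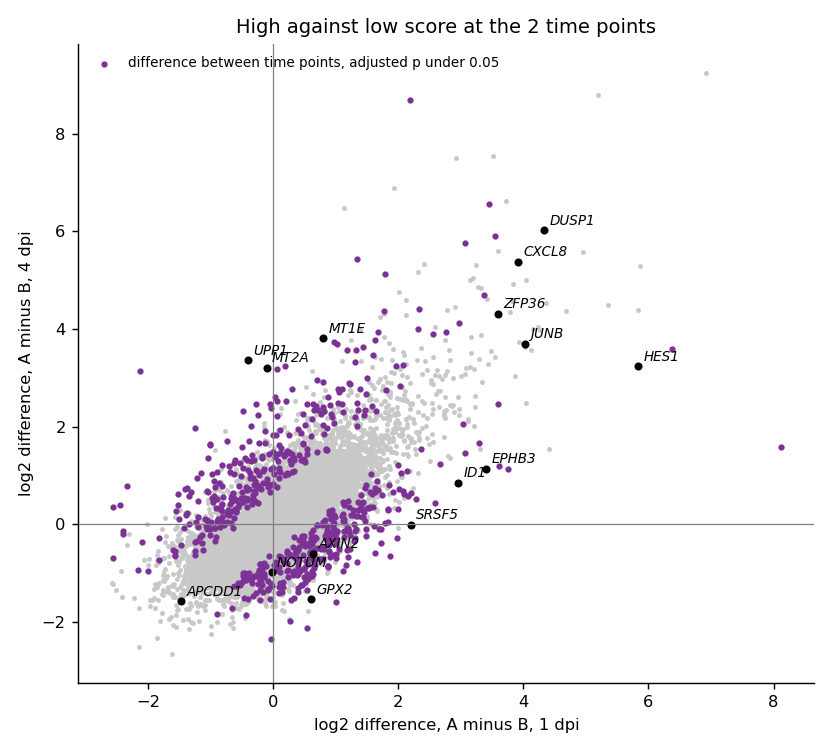
Log2 difference of group A minus group B at 4 dpi (vertical) against that at 1 dpi (horizontal), 1 point per gene tested at both times, with purple points for genes whose difference between times was called (adjusted p under 0.05) and 15 genes named in the text in black. MT2A, MT1E and UPP1 lie high at 4 dpi and between -0.40 and 0.80 at 1 dpi, while HES1 lies at 5.84 at 1 dpi and 3.23 at 4 dpi.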

How the data were processed

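Single cells from 5 plates were sequenced by SORT-seq. Per the labels and the study's methods, the authors aligned reads with BWA (hg38 in the submitters' processing notes, versions not given in the sources used here), counted UMIs and deposited raw counts per gene and well. Wells with over 2000 genes and under 25% mitochondrial UMIs were kept, without a doublet caller because 1 cell was sorted per well. ERCC spike-ins were left out of all totals. The groups, lists and members were chosen with earlier results of these data known. UMIs were summed per plate and group without the 7 score genes, and compared with edgeR 4.0.16 (R 4.3.3) quasi-likelihood tests, TMM factors, plate as a block, low counts filtered and Benjamini-Hochberg adjustment over all genes tested. A gene was called at an adjusted p under 0.05. The 2 plates leave 1 residual degree of freedom, so the spread was pooled over genes. DESeq2 1.42.0 was an alternative. Fits were tested on simulated data. Sums and motifs were computed with Python 3.11.15 and pandas 2.3.3.

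Named were the score genes, the 8 largest rises and falls among called genes with the same direction on both plates and at least 20 UMIs, all further AP-1 and early genes, the highest and lowest gene of each other list, genes the study discusses, and the 3 smallest p-values per direction between time points. DUSP5, DUSP6, DUSP10, CXCL2, CXCL3, CCL20, AXL, F3, AREG, ERRFI1, SNAI1, SNAI2, JAG1, NRARP, NKD1, TCF7, CD44, MT1X, SLC30A1 and EPCAM were chosen after their values were seen. Some genes that the rule names are not reported here. Counting intervals (95%, exact) and floors (3 UMIs over a group) cover counting error only. Alternatives changed the normalization, filters, score genes, cut and matching of cells. Leaving out the cell with most UMIs of a gene was added after seeing the data.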

Additional observations from a re-analysis of the deposited data

Results flagged for a closer look

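The difference between high and low cells itself differed between the time points for 17 of the 22 genes whose difference between times is given above, tested as an interaction of group and time over the 5 plates (edgeR, adjusted p under 0.05). Some of the 22 were named for the smallest p-values of this same test, so 17 of 22 is not a rate. Over all genes it was called for 6.06% of 10568, and with DESeq2 for 3.5% of 5401. Each value is the log2 difference at 4 dpi minus that at 1 dpi. Among early genes it was 2.32 for GADD45B, 2.04 for HBEGF, 1.10 for PPP1R15A, -1.18 for CCNL1, -1.51 for SRF and -2.16 for ID1. Among stress, metal and metabolic genes it was 3.72 for UPP1, 3.26 for MT2A, 2.97 for MT1E, 2.56 for DDIT4 and -2.19 for GPX2. The splicing factor SRSF5 differed by -2.26. Notch effectors differed by -2.65 for HES1 and by -8.68 for HES5, where the last value is a fitted one that rests on 2 UMIs in group A at 4 dpi and is no bound. Wnt targets differed by -1.28 for AXIN2, -1.001 for NOTUM and -2.32 for EPHB3. Time and plate cannot be told apart in any of these.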

How the results depend on the processing

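Of the results at 4 dpi for single named genes under all alternatives, 2896 kept their direction and side of the threshold, 117 lost and 10 gained a call, 118 moved without a test and 3 changed sign. ATF7, not called, changed sign in cells matched on the mitochondrial share (0.33) and with the score taken without IER2 (0.23), and PROX1 did so in matched cells (0.027). Genes higher and lower in A at 4 dpi numbered 465 and 244 with DESeq2, 484 and 308 with cells thinned to 5000 UMIs, 725 and 187 in matched cells and 1117 and 690 among cells with under 15% mitochondrial UMIs, and 896 genes were lower with the score taken without IER2. The last 3 of these settings used other cells, and thinning tested 3713 genes. With DESeq2 the counts were 1617 and 1343 at 1 dpi and 102 and 87 for the difference between times. At 1 dpi, leaving out 1 plate at a time moved MT2A between -0.31 and 0.056 and NOTUM between -0.28 and 0.25, neither called, with the highest values without library 8. For the other changes the cause was not tested.

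The plate block of the main comparison pairs A and B of the same plate. Without the block 117 of 120 named genes kept their direction and side of the threshold and 3 lost their call, namely CFLAR (-0.63), RPS9 (0.33) and CD44 (-1.20). At 4 dpi leaving out library 10 or 11 left a single plate with no test, and the values of 39 and 50 named genes moved by more than the spread. Leaving out the richest cell of a gene moved 29 of 120 named genes. The number of plates, single cells that hold most UMIs of some genes, and the mitochondrial share limit what the counts can show.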
